A study of Mus musculus with 15 samples.

Results

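The data describe cell to cell variation among 5 single juxtaglomerular cells, which are 5 of the 15 samples of the series. The members are the 5 arrays whose titles name single cells of the renin reporter, numbered 4 to 8 in those titles, and the same numbers are used here. Each cell came from an adult male mouse carrying the Ren1c-YFP reporter, on a strain that the labels leave unspecified. The labels' account of the dissection names Ren1d GFP mice instead, and the files do not settle which line was used. The medulla was discarded, the tissue beside glomeruli was digested with collagenase A and trypsin, and single fluorescent cells were picked with pulled glass needles. The cells were not pooled, and all 5 went through the same number of rounds of single-cell amplification, 32, before hybridisation to an Affymetrix whole-transcript mouse gene array. No label names the animal of a cell. The 5 cells therefore count as 1 sample of any condition, and all values below are descriptions of these 5 arrays without a test. A spread between arrays holds both the spread between cells and that of 1 amplification and 1 hybridisation per cell, and these cannot be told apart.

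Juxtaglomerular cells lie in the wall of the afferent arteriole where it enters the glomerulus, and they make, store and secrete renin, the enzyme that starts the renin-angiotensin cascade. They are modified smooth muscle cells of the pericyte and mural lineage, and they can shift between a contractile and a secretory phenotype. A cell of this kind could therefore carry actin and myosin genes of smooth muscle, pericyte genes, genes of secretory and lysosome-like granules, and the translation and energy machinery of a secretory cell. Renin itself (Ren1, Ren2), Akr1b7 and Adrb1 had no probe set carrying their symbol alone and were not analysed here.

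A gene was at background in a cell when its log2 signal did not exceed the 99th percentile of 1207 probe sets for olfactory and vomeronasal receptors on the same array, and it was bright when it lay at least 2 log2 units, a signal ratio of 4, above that percentile. Values in between are called intermediate. The receptor percentile lay at 7.73 in cell 4, 7.93 in cell 5, 7.73 in cell 6, 7.70 in cell 7 and 7.55 in cell 8, and the median of all probe sets varied only from 6.20 to 6.28. Of 18746 genes, cell 4 had 9.66% above background, cell 5 had 7.27%, cell 6 had 10.7%, cell 7 had 11.4% and cell 8 had 15.2%. The share that was bright was 1.48% in cell 4, 1.18% in cell 5, 1.8% in cell 6, 3.19% in cell 7 and 2.14% in cell 8. Cell 7 thus had the most bright genes, 598, and cell 5 the fewest, 222. Cell 4 had the next fewest, 277. How far the number of bright genes contributes to the differences between the cells that follow was not tested.

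The 4 genes proposed as marks of these cells, Acta2, Myl9, Rgs5 and Junb, were each bright in some cells and not in others. Their promoters are shown because they let the reader see the upstream sequence of genes that did not share a pattern over the cells. The sequences are the 200 bases before the annotated start in RefSeq on GRCm38.p6, written 5′ to 3′ on the gene's strand, and capitals mark a CArG box, the site bound by serum response factor, where the letters held an exact match.
Acta2 (chr19:34255374-34255573, minus strand): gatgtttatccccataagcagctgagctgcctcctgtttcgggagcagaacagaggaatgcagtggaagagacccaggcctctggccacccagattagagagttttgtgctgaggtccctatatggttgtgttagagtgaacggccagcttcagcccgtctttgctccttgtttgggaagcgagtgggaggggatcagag
Myl9 (chr2:156775264-156775463, plus strand): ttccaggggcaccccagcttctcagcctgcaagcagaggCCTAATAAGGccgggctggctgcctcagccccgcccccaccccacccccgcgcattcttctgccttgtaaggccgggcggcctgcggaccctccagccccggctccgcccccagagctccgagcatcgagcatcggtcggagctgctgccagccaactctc
Rgs5 (chr1:169655301-169655500, plus strand): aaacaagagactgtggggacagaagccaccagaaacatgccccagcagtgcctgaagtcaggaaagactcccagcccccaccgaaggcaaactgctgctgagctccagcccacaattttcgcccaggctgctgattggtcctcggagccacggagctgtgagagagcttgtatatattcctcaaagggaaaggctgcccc
Junb (chr8:84978749-84978948, minus strand): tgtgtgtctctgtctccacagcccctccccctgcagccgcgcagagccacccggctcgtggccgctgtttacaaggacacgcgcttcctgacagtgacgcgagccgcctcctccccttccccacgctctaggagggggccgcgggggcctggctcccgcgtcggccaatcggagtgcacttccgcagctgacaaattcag
An exact CArG box was searched on both strands and found only in the window of Myl9 among these 4, where it began 161 bases before the start. Of 32851 promoter windows of this length in the RefSeq table, 389 (1.18%) held a match. The cyclic AMP response element TGACGTCA, which reads the same on both strands, was in none of the 4 windows and in 483 of all windows (1.47%). The match in Myl9 is a description of letters, and windows without a match can hold variants that an exact search does not find. The window of Acta2, for example, holds ccctatatgg and ccttgtttgg, which come close to the pattern without matching it exactly.

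Acta2, the smooth muscle actin, read 6.57 in cell 4, 6.02 in cell 5, 6.93 in cell 6, 12.20 in cell 7 and 11.32 in cell 8. It was bright in cells 7 and 8 and at background in the other 3, with no value in between. Myl9, a regulatory light chain of smooth muscle myosin, read 6.31, 5.31, 6.86, 12.79 and 7.24 in cells 4 to 8. Only cell 7 was bright for it, so cell 8 carried the actin signal without that of the light chain. Rgs5, a regulator of G-protein signalling that marks pericytes, read 10.44 in cell 4, 6.82 in cell 5, 9.76 in cell 6, 10.55 in cell 7 and 5.99 in cell 8. Cells 4, 6 and 7 were bright for it, with cell 6 only just past the limit, and cells 5 and 8 were at background. Junb, a subunit of the AP-1 transcription factor, read 12.29, 8.48, 7.82, 7.71 and 8.39 in cells 4 to 8. It was bright in cell 4 and intermediate in the others, and cell 7 lay barely above its background. Cell 7 was bright for 3 of the 4 marks, cell 4 for 2, cells 6 and 8 for 1 each, and cell 5 for 0.

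Across all 18746 genes, 1030 (5.49%) were bright in at least 1 cell, and 55 (0.293%) were bright in all 5. A further 510 (2.72%) were bright in 1 to 4 cells and at background in every other cell, a pattern called bright or background here. The remaining 465 bright genes had at least 1 intermediate cell. Genes bright in 1 to 4 cells left 3314 values in cells that were not bright, and 2354 of these (71.0%) were at background and 960 intermediate. The 55 shared genes were 19.9% of the bright genes of cell 4, 24.8% of those of cell 5, 16.3% of cell 6, 9.20% of cell 7 and 13.7% of cell 8. At the other end, 14496 genes were above background in no cell and 683 were above it in all 5.

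Of the 55 genes bright in all 5 cells, 14 were among the 60 cytosolic ribosomal proteins, 5 were cytochrome oxidase or ATP synthase genes, and 8 carried only an ID or named a microRNA, a ribosomal RNA or a pseudogene. Their SD over the 5 cells ran from 0.12 to 1.13 with a median of 0.38, and 39 had an SD under 0.5. With cells 4 and 5 left out, a choice made after seeing the data, 132 genes were bright in every remaining cell.

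**Figure D1:**
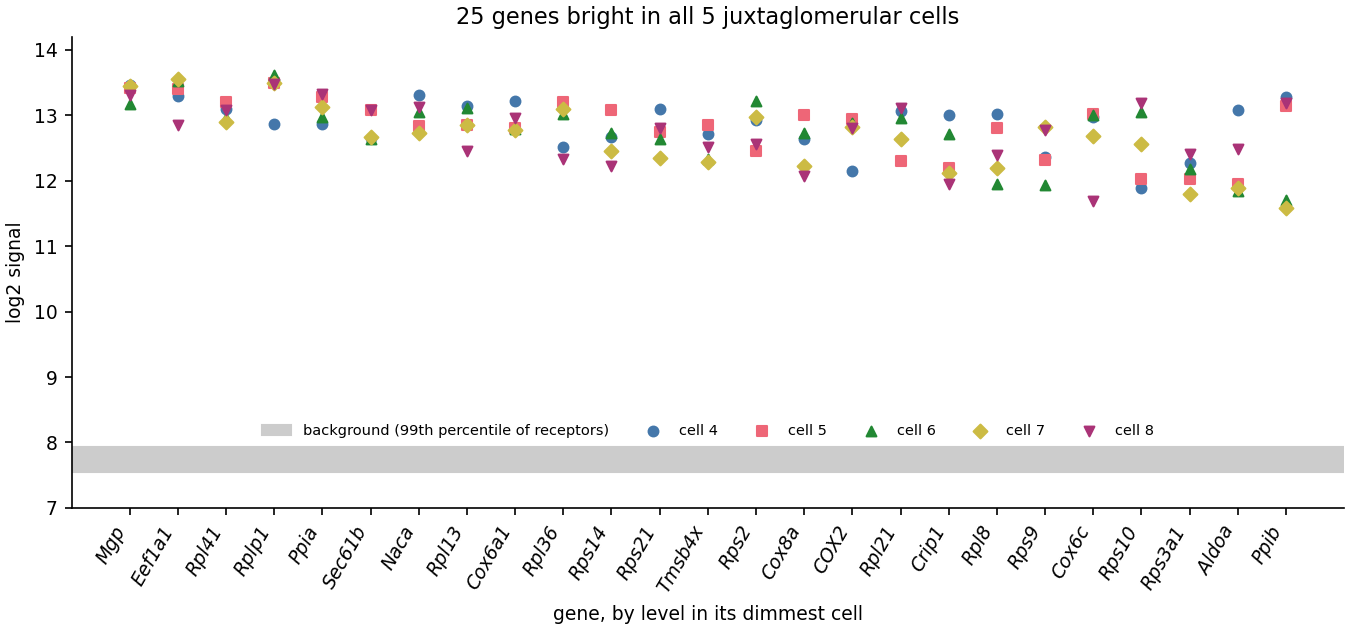
Log2 signal (vertical axis) of the 25 genes, of the 55 bright in all 5 cells, that lay farthest above background in their dimmest cell. Each symbol is 1 cell, the grey band spans the background of the 5 arrays from 7.55 to 7.93, and all symbols lie above 11.5, with Mgp and Rpl41 the tightest.

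Mgp, the matrix Gla protein that inhibits calcification of vessel walls, read 13.46 in cell 4, 13.41 in cell 5, 13.17 in cell 6, 13.45 in cell 7 and 13.31 in cell 8. Its SD was 0.12, and no cell stood apart. The highest value on any of the 5 arrays was 13.94, and how far differences can show so near it was not tested. Crip1, a LIM-domain protein reported in renin cells, read 13.01, 12.19, 12.71, 12.11 and 11.96 in cells 4 to 8 (SD 0.44). Crip1 was the only member of a 15-gene list of renin cell genes that was bright in every cell. Sec61b, a subunit of the channel through which secreted proteins enter the endoplasmic reticulum, read 12.65, 13.08, 12.64, 12.67 and 13.07 in cells 4 to 8 (SD 0.23). Tmsb4x, which binds actin monomers, read 12.71, 12.86, 12.34, 12.29 and 12.52 (SD 0.24). For both genes the 5 cells lay within a narrow band.

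Among the translation genes of this group, Rpl41 read from 12.89 to 13.20 over the cells (SD 0.12) and Eef1a1, which delivers aminoacyl-tRNA to the ribosome, from 12.84 to 13.55 (SD 0.29). Naca, part of the complex that meets nascent chains, had an SD of 0.23 and Rps3a1 also of 0.23. The cytochrome oxidase subunits Cox6a1 and Cox8a were bright throughout, with an SD of 0.19 for Cox6a1 and 0.38 for Cox8a. Ppia, a peptidyl-prolyl isomerase of the cytosol, had an SD of 0.20. The glycolytic enzyme Aldoa read 13.08 in cell 4 and from 11.85 to 12.49 in the others. Golph3, a Golgi protein of the secretory route, read from 9.78 to 10.35 (SD 0.23), much nearer the limit of the class, and its other probe set was at background in every cell.

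Some genes bright in all 5 cells nevertheless differed between them. Ptp4a3, a phosphatase anchored to membranes, had the largest SD of the class, 1.13, and read 12.55 in cell 4, 9.98 in cell 5, 10.52 in cell 6, 12.03 in cell 7 and 12.19 in cell 8. Cells 4, 7 and 8 formed the high side and cells 5 and 6 the low side. Ifitm2, an interferon-induced membrane protein, read 10.24, 13.04, 12.48, 11.73 and 12.46 in cells 4 to 8 (SD 1.08). Of its other 2 probe sets, 1 was bright in all 5 and lowest in cell 4, and 1 was at background in cell 5, at 7.50, so the low cell depends on the probe set. Igfbp7, a secreted protein that binds insulin-like growth factors, read 12.88, 12.83, 10.53, 12.84 and 12.81 (SD 1.03), so that cell 6 alone fell below the rest. Bsg, a membrane glycoprotein that escorts lactate transporters, read 12.49, 10.54, 11.30, 12.31 and 10.52 (SD 0.94). Hspb1, a small heat shock protein that binds actin in muscle, read 11.40, 13.46, 12.66, 12.67 and 13.14 (SD 0.78), again lowest in cell 4. Ppib, a peptidyl-prolyl isomerase of the endoplasmic reticulum, read 13.28, 13.15, 11.71, 11.59 and 13.19 (SD 0.85), with cells 6 and 7 below the other 3. Sod1, the cytosolic superoxide dismutase, ran from 10.58 in cell 8 to 12.43 in cell 7. Atp6v0a2, a subunit of the vacuolar proton pump, ran from 9.89 in cell 4 to 11.61 in cell 5, while its other probe set was at background in all 5.

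The limit of the class was not sharp. Ptp4a3 entered it with 2.05 log2 units above background in its dimmest cell, and Tapt1, whose values ran from 9.76 to 10.10 with an SD of 0.14, stayed outside it although it varied little. The other probe set of Tapt1 was at background in all 5 cells.

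The contractile genes of smooth muscle were not bright together in any cell. Of 20 measured members, 2 were above background in cell 4, 0 in cell 5, 1 in cell 6, 7 in cell 7 and 6 in cell 8, and none was above background in all 5. These are shares from 0% to 35%, beside 7.27% to 15.2% over all genes. Besides Acta2 and Myl9, 4 members were bright somewhere. Tpm2, beta tropomyosin, read 10.74, 7.13, 10.01, 10.71 and 6.65 in cells 4 to 8. It was bright in cells 4, 6 and 7, the cells that were also bright for Rgs5. Pln, phospholamban, which restrains the calcium pump of the sarcoplasmic reticulum, read 12.32 in cell 8 and from 6.21 to 6.57 in the other 4. Des, the intermediate filament desmin, read 10.60 in cell 8 and from 6.44 to 7.46 in the others. Sncg, gamma synuclein, read 11.82, 7.73, 7.59, 8.25 and 12.51 in cells 4 to 8, so cells 4 and 8 were bright. Myh11, the smooth muscle myosin heavy chain, read from 7.18 to 7.45, Tagln, transgelin, from 6.30 to 7.37, and Cnn1, calponin, from 5.91 to 7.35, and all 3 were at background in every cell. The bright contractile genes of cell 7 were thus Acta2, Myl9 and Tpm2, and those of cell 8 were Acta2, Des, Pln and Sncg. A further 4 members were intermediate in cell 7 and 2 in cell 8.

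**Figure D2:**
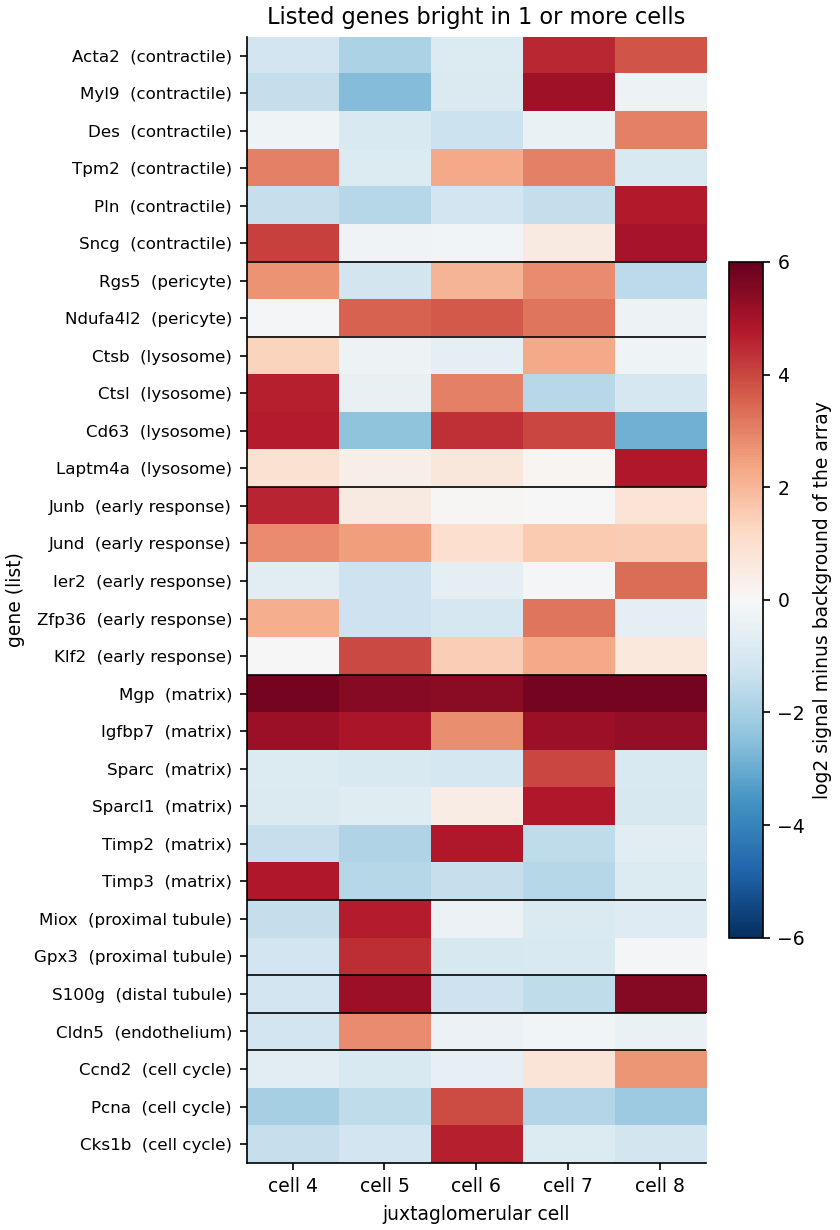
Log2 signal minus the background of the array for members of 9 gene lists that were bright in at least 1 cell, with cells 4 to 8 as columns and the genes as rows grouped by list. Red is above and blue below background, and Mgp is deep red in every column while Acta2 is red only for cells 7 and 8 and Miox only for cell 5.

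Of 14 calcium and cytoskeleton regulators of smooth muscle, 5 were above background in all 5 cells and 8 were bright in at least 1, beside 5.49% of all genes. Myl6, the essential light chain present in smooth and non-muscle cells, read 12.78 in cell 4, 7.05 in cell 5, 9.32 in cell 6, 12.98 in cell 7 and 13.13 in cell 8. It was bright in cells 4, 7 and 8, intermediate in cell 6 and at background in cell 5. Pfn1, profilin, was above background in all 5, at 13.36, 10.28, 11.29, 12.41 and 8.33 in cells 4 to 8. Tmsb10, which binds actin monomers like Tmsb4x, read 6.91, 12.73, 13.10, 11.50 and 12.30. Only cell 4 was at background for it, whereas Tmsb4x was bright there. Csrp1, a LIM-domain protein of smooth muscle, read 9.35, 8.23, 9.91, 10.08 and 10.998, bright in cells 6, 7 and 8. Vim, the intermediate filament vimentin, was bright in cell 8 alone, at 11.74.

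Among pericyte genes, 15 of 19 measured members were above background in no cell, beside 14496 of all 18746 genes. By this count the list lay near all genes. Of the 19, 1 was bright in cell 4, 1 in cell 5, 2 in cell 6, 2 in cell 7 and 0 in cell 8, beside 1.18% to 3.19% of all genes, and the bright members were Rgs5 and Ndufa4l2. Ndufa4l2, a mitochondrial protein induced by low oxygen that marks pericytes, read 7.67, 11.49, 11.41, 10.92 and 7.27 in cells 4 to 8. It was bright in cells 5, 6 and 7, so cells 6 and 7 carried both genes, cell 4 only Rgs5 and cell 5 only Ndufa4l2. Notch3, a receptor of mural cells, was never bright and read from 7.79 to 8.41, above background in 4 of 5 cells. Pdgfrb, the receptor that recruits pericytes, read from 6.32 to 6.56, at background in every cell.

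Of the remaining renin cell genes, Gja4 and Nr2f6 were each bright in 1 cell. Gja4, a connexin of the arteriolar wall, read 9.08, 6.88, 7.86, 12.23 and 8.30 in cells 4 to 8, with cell 7 alone bright and cells 4, 6 and 8 intermediate. Nr2f6, a nuclear receptor that binds the renin gene, read 12.01 in cell 8 and from 7.37 to 8.34 in the others, with cell 5 intermediate. Gja5, the connexin through which juxtaglomerular cells couple, read from 6.18 to 7.16, and the adenylyl cyclases Adcy5 and Adcy6 read from 6.57 to 7.07 and from 6.82 to 7.07. These 3 were at background in all 5 cells. In the list of cyclic AMP and protein kinase A genes 0 of 20 measured members were bright in any cell, and in the Notch list 0 of 16. Since only 5.49% of all genes were bright in any cell, these counts of bright members set neither list apart. The shares above background did differ. They were 31.25%, 25%, 25%, 43.75% and 43.75% in cells 4 to 8 for the Notch list. For the cyclic AMP list they were 10%, 5%, 10%, 5% and 15%. The shares of all genes were 9.66%, 7.27%, 10.7%, 11.4% and 15.2%.

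Granule and lysosome genes matter in cells that store renin. The 4 of 18 measured members that were bright in any cell were split between the cells. Of the 18, 6 were above background in no cell, among them Lamp1, Lamp2 and Ctsd, beside 14496 of all 18746 genes. Cd63, a tetraspanin of secretory granules and late endosomes, read 12.43 in cell 4, 5.52 in cell 5, 12.13 in cell 6, 11.69 in cell 7 and 4.66 in cell 8. Its bright and background cells were separated by a wide empty interval. Ctsl, the lysosomal protease cathepsin L, read 12.38, 7.50, 10.76, 6.05 and 6.53, bright in cells 4 and 6. Ctsb, cathepsin B, which can process prorenin, was bright in cell 7 alone, at 9.97, and read 9.05 in cell 4. Laptm4a, a lysosomal membrane protein, was above background in every cell and bright in cell 8 alone, at 12.38. Of 18 measured members, 2 were bright in cell 4, 0 in cell 5, 2 in cell 6, 2 in cell 7 and 1 in cell 8, beside 1.18% to 3.19% of all genes bright per cell.

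Genes of the early response to stimulation or to dissociation were present in every cell, but in a different set each time. Of 25 measured members, 11 were above background in cell 4, 8 in cell 5, 7 in cell 6, 11 in cell 7 and 15 in cell 8. These are shares of 44%, 32%, 28%, 44% and 60%, beside 9.66%, 7.27%, 10.7%, 11.4% and 15.2% of all genes. Most were intermediate, and 3, 2, 0, 2 and 1 were bright. Klf2, a transcription factor that responds to flow, read 7.69, 11.91, 9.22, 9.99 and 8.21 in cells 4 to 8, bright in cells 5 and 7. Zfp36, which promotes decay of short-lived mRNAs, read 9.89, 6.70, 6.74, 10.89 and 6.97, bright in cells 4 and 7. Ier2 was bright in cell 8 alone, at 10.93. Jund, a partner of Junb in AP-1, read 10.56, 10.43, 8.76, 9.28 and 9.10, bright in cells 4 and 5 and above background in all. Fos, which pairs with Jun proteins in AP-1, was not bright in any cell and read from 6.27 to 8.47. An exact CArG box lay in the promoter windows of 2 of the 19 early genes with a window, Zfp36 and Egr2, and in 1 of 16 contractile genes, Myl9. Over all windows the share was 1.18%. That share is by window and these counts are by gene, and Egr2 had more than 1 window. Near matches, as in Acta2, were not counted.

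Some heat shock genes also differed between the cells, while the counts over the list were close. Of 13 measured members, 3, 4, 5, 5 and 3 were above background in cells 4 to 8. The bright ones numbered 2, 3, 2, 3 and 2. The shares above background ran from 23.1% to 38.5%, beside 7.27% to 15.2% of all genes. Of the 13, 7 were above background in no cell, beside 14496 of all 18746 genes. Hspa8, the constitutive chaperone, read 12.19, 10.59, 10.83, 10.003 and 6.36 in cells 4 to 8, at background only in cell 8. Its other 2 probe sets were at background in cell 5 as well, at 6.52 and 7.04. Hspa1a, the inducible chaperone, was above background in all 5 and bright in cells 5 and 8, at 10.54 and 11.08. Dnaja1, a co-chaperone, was bright in cell 7 alone, at 12.40, with its other probe set intermediate there, at 8.28.

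Cytosolic ribosomal protein genes had a lower median in cells 4 and 5 than in the other 3. Of 60 cytosolic ribosomal protein genes, 34 were above background in cell 4 and 35 in cell 5, against 50 in cell 6, 52 in cell 7 and 52 in cell 8. These are shares from 56.7% to 86.7%, far over those of all genes. The bright members numbered 25, 28, 44, 47 and 41. The median of the list was 8.47 in cell 4 and 8.59 in cell 5, and it was 12.34, 12.31 and 12.26 in cells 6, 7 and 8, beside medians of all genes from 6.49 to 6.53. Cells 4 and 5 were thus low and the other 3 high, while 14 ribosomal proteins were bright in all 5 cells. The members at background numbered 26 and 25 in cells 4 and 5 and 10, 8 and 8 in cells 6, 7 and 8. The list of 19 translation factors did not divide the cells in this way, with medians of 7.04, 6.84, 7.05, 7.75 and 7.58 in cells 4 to 8 and 7, 6, 7, 10 and 10 members above background.

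**Figure D3:**
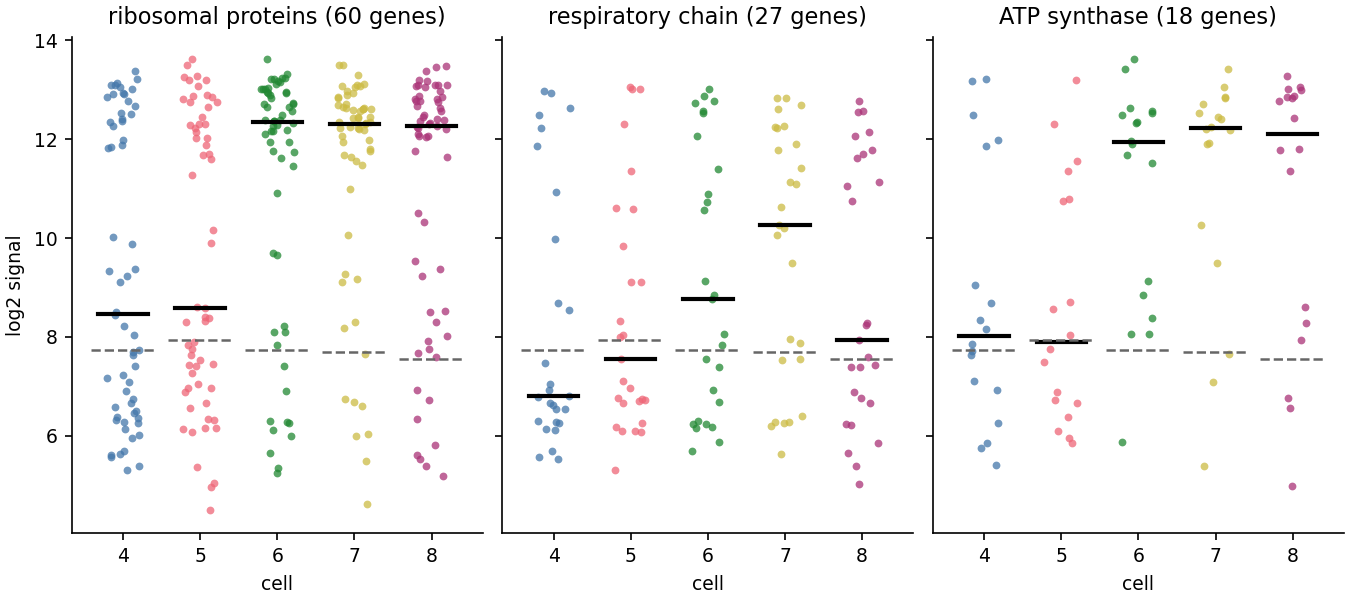
Log2 signal of each gene (points) in cells 4 to 8 for 60 ribosomal protein genes, 27 nuclear genes of the respiratory chain and 18 genes of ATP synthase, with the list median as a black bar and the background of each array as a dashed line. In cells 4 and 5 the points form a bright and a background cloud and the median of ribosomal proteins lies between them, at 8.47 and 8.59.

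Single ribosomal proteins show the pattern. Rps15 read 6.90 in cell 4, 7.45 in cell 5, 13.24 in cell 6, 13.50 in cell 7 and 13.47 in cell 8. Rpl26 read 6.38, 5.04, 12.32, 12.25 and 12.32 in the same order. Both were at background in cells 4 and 5 and nearly equal in the other 3, although 1 of 3 probe sets of Rps15 was intermediate in cells 4 and 5, at 7.81 and 8.49. The genes at background were not the same in cells 4 and 5. Rpl7 read 5.69 in cell 4 and from 12.06 to 12.89 in the other 4, whereas Rpl7a read 7.44 in cell 5 and from 12.06 to 12.36 in the other 4, with 1 of its 3 probe sets only intermediate in cell 6, at 8.27. Rps20 was at background in cell 4 alone, at 5.96, and Rps29 in cell 5 alone, at 7.75. Cells 6, 7 and 8 also had gaps. Rplp0, the stalk protein of the large subunit, read 6.93 in cell 8 and from 13.22 to 13.30 in the others, and Rpl5 read 5.34 in cell 6 although it was bright in cells 5, 7 and 8. For Rpl5, 1 of 5 probe sets was at background in cell 5 too, at 5.15. The other probe set of Rplp0 was intermediate in cell 6, at 9.20, and at background in cell 8, at 7.07. Many ribosomal protein genes have processed pseudogenes that share their sequence, and signal from such copies cannot be told apart from that of the gene.

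Genes of the respiratory chain and of ATP synthase also had their lowest counts in cells 4 and 5. The list of 13 glycolysis genes did not divide the cells in this way, with 6, 4, 6, 6 and 7 above background in cells 4 to 8. Of 27 nuclear respiratory chain genes, 10 were above background in cell 4, 13 in cell 5, 16 in cell 6, 19 in cell 7 and 15 in cell 8. The shares ran from 37.0% to 70.4%, beside 7.27% to 15.2% of all genes. Cox4i1, a core subunit of cytochrome oxidase, read 6.54 in cell 4 and from 12.56 to 13.06 in the other 4. Uqcrb, of complex III, was bright in cells 7 and 8 only, at 12.62 and 12.78, and Cox5b, of cytochrome oxidase, in cells 6 and 8 only, at 12.53 and 12.56. Subunits of the same complex were therefore not bright in the same cells. Of 18 ATP synthase genes, cell 4 had 10 above background, cell 5 had 9, cell 6 had 17, and cells 7 and 8 had 15 each, shares from 50% to 94.4%. Atp5pb, a subunit of the stator stalk, was bright in all 5 by the probe set that stands for it, from 10.78 to 11.97, whereas its other probe set read 7.95 in cell 5 and 6.16, at background, in cell 8. Atp5g3, a gene for the membrane ring, read 5.85, 5.94, 13.61, 13.43 and 11.80 and followed the order of the ribosomal proteins, while Fmc1, an assembly factor, read 5.86 in cell 5 and from 11.90 to 13.19 in the other 4.

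Several genes bright in the other 4 cells were at background in cell 4. Fth1, the heavy chain of the iron store ferritin, read 5.95 in cell 4, 12.86 in cell 5, 12.80 in cell 6, 12.75 in cell 7 and 12.95 in cell 8. Ftl1, the light chain, read 6.88 in cell 4 and from 12.98 to 13.12 in the others, so both chains were at background in cell 4 and nearly level elsewhere. ND3, encoded in the mitochondrial genome, read 5.44 in cell 4 and from 11.88 to 12.90 in the others. Its other probe set was intermediate in cell 4, at 7.999, and bright from 10.49 to 11.21 in the others. COX2, from the same genome, was bright in cell 4 at 12.15, so signal from that genome was present there.

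**Figure D4:**
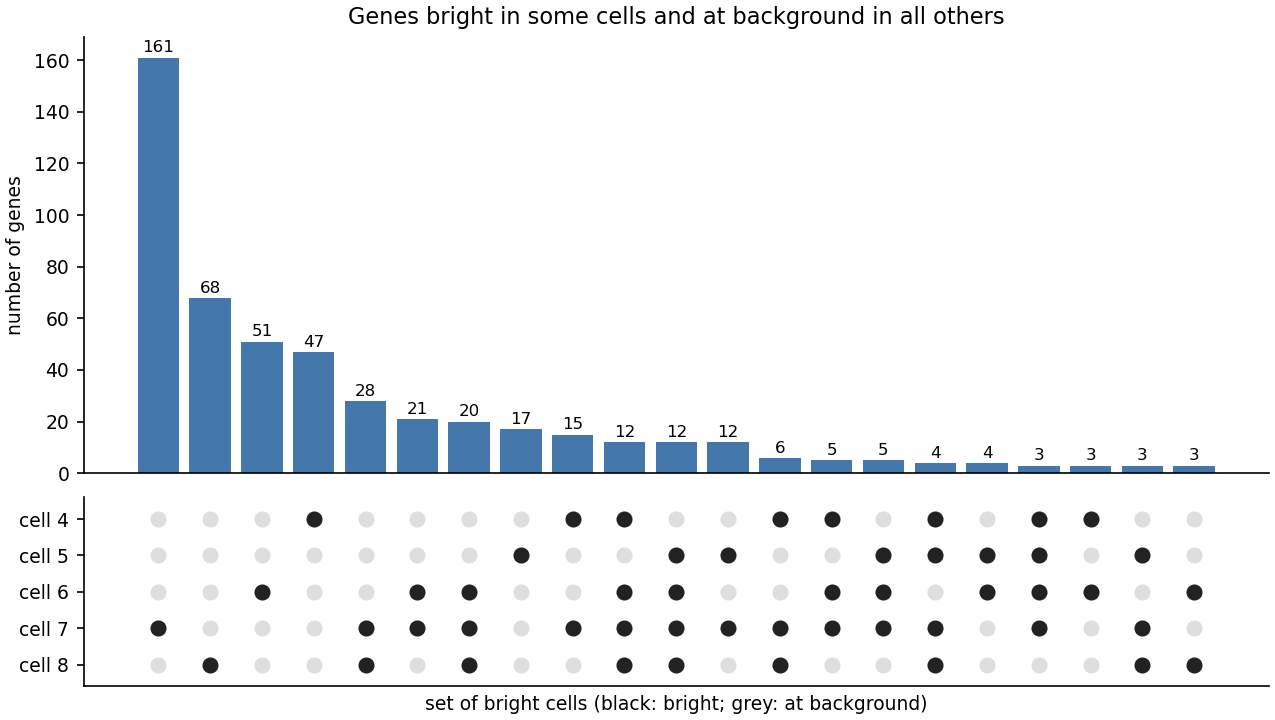
Number of genes (vertical axis) bright in a given set of cells and at background in every other cell, for the sets that held at least 3 of the 510 genes, with black dots marking the bright cells. Cell 7 alone accounts for 161 genes, and the pair of cells 7 and 8 for 28.

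Most of the 510 bright or background genes, 344, were bright in a single cell. Cell 7 alone held 161 of them, cell 8 held 68, cell 6 held 51, cell 4 held 47 and cell 5 held 17. A further 91 genes were bright in 2 cells, 44 in 3 and 31 in 4. Among the pairs, cells 7 and 8 shared 28 such genes, cells 6 and 7 shared 21 and cells 4 and 7 shared 15. Among the sets of 3, cells 6, 7 and 8 held 20, of which 9 were ribosomal proteins. When 4 cells were bright, the cell at background was cell 4 for 12 genes, cell 5 for 12, cell 6 for 4, cell 8 for 3 and cell 7 for 0. Over all 613 genes bright in 1 cell, with or without intermediate cells, the median excess over background in the bright cell was 3.77 log2 units. It was 3.90, 4.16 and 4.59 for genes bright in 2, 3 and 4 cells, and 4.34 for those bright in all 5. The limit of 2 log2 units for bright cuts every such group off from below.

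The genes farthest above background in a single cell were as follows. Cell 4 alone was bright for Pfdn5, a prefoldin subunit that hands actin and tubulin to their folding machine, at 13.39 against 5.62 to 7.18 elsewhere, and for Serp1, which protects membrane proteins during their synthesis, at 13.24 against 6.58 to 7.43. Mrps7, a mitochondrial ribosomal protein, stood at 13.20 in cell 4, and Polr2c, a subunit of RNA polymerase II, at 13.13. The other probe set of Polr2c was intermediate in cells 4 and 6, at 8.92 and 8.39. Cell 5 alone was bright for Tomm20, a receptor for proteins entering mitochondria, at 12.97 against 5.59 to 6.64, and for Fabp3, a fatty acid carrier of muscle, at 12.69 against 5.50 to 7.44. Tst, a mitochondrial sulphurtransferase, stood at 12.72 in cell 5. By the probe set that stands for the gene, each was at background in the other 4 cells.

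Cell 6 alone was bright for a group of RNA-processing genes. Lsm8, part of the ring that binds U6 RNA, read 13.23 in cell 6 against 5.70 to 6.07 in the others, and Snrpg, a core protein of spliceosomal particles, read 12.90 against 6.43 to 7.10. Snrpb2 and Lsm10, of the same families, were also bright in cell 6 alone, at 12.72 and 11.20. Over the family of 23 Sm and LSm genes, 0 were bright in cell 4, 2 in cell 5, 7 in cell 6, 3 in cell 7 and 1 in cell 8, beside 1.48%, 1.18%, 1.8%, 3.19% and 2.14% of all genes. This family was put together after the values had been seen. Polr2g, another RNA polymerase II subunit, stood at 12.99 in cell 6.

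Cell 7 alone was bright for Sumo2, a ubiquitin-like modifier, at 13.19 against 6.60 to 7.22, for Camk1, a calmodulin-dependent kinase, at 12.96 against 6.15 to 6.92, and for Clpp, a mitochondrial protease, at 12.82 against 6.48 to 7.54. Cell 8 alone was bright for Snrpd2, a core spliceosomal protein, at 13.24 against 6.69 to 7.77, for Map1lc3b, which coats autophagosomes, at 13.21 against 6.83 to 7.50, and for Nop10, of the box H/ACA particles, at 12.67 against 6.04 to 6.71. The isolated values of Sumo2, Snrpd2 and Map1lc3b were shown by every probe set of these genes.

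Genes bright in 2 or 3 cells crossed the cells in different ways. Bet1, which serves transport from the endoplasmic reticulum to the Golgi, was bright in cells 6 and 7, at 12.87 and 11.98 against 4.99 to 5.45. Rpl10a was bright in cells 7 and 8, at 12.60 and 13.17 against 6.13 to 6.26. Ndufb6, of complex I, was bright in cells 4 and 7, at 12.91 and 11.74 against 5.12 to 5.28. The pair of bright cells differed among these 3 genes, but cell 7 was in each. Sem1 was bright in cells 6 and 7 like Bet1, and Tceal1 in cells 7 and 8 like Rpl10a. Rnf7, a ubiquitin ligase subunit, read 13.07, 13.52, 4.86, 5.74 and 12.43 in cells 4 to 8 and had the largest SD of the genes named here, 4.25. Hnrnpk, an RNA-binding protein, read 5.19, 5.44, 12.60, 11.31 and 11.95, bright in cells 6, 7 and 8, with 1 of its 3 probe sets intermediate in cell 7, at 8.22.

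**Figure D5:**
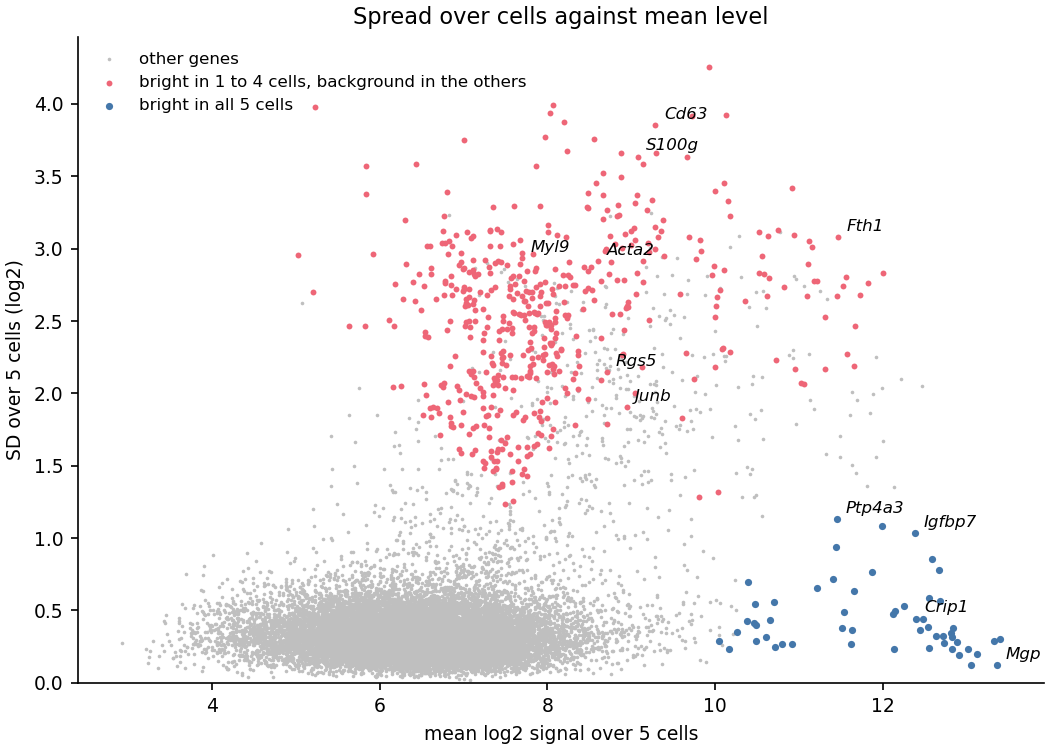
SD over the 5 cells (log2, vertical axis) against the mean log2 signal of each of 18746 genes (points), with genes bright in all 5 cells in blue and bright or background genes in red. The SD is small for dim genes and for the genes of the highest mean, and it is large for many genes in between. Acta2, Myl9, Rgs5 and Junb lie at means from 7.70 to 8.94 and above most genes of their level, which follows from their being bright in some cells only.

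The spread depended on the mean level, as the plot of SD against level shows. The median SD was between 0.31 and 0.33 for genes with a mean below 8 and 0.45 for means of 8 to 9. It rose to 1.66 for means of 9 to 10 and to 2.14 for means of 10 to 11. It was 2.03 for means of 11 to 12 and 0.36 for the 33 genes with a mean of 12 to 14. The highest value on any array was 13.94, and how far differences can show near it was not tested. The 4 marks had a larger SD than the median of genes at their level. This follows from their being bright in some cells only, and it adds nothing to the patterns given above. Acta2 (SD 2.91) and Myl9 (SD 2.93) had means of 8.61 and 7.70, and Rgs5 (SD 2.15) and Junb (SD 1.90) means of 8.71 and 8.94.

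Probe sets of the same gene were compared where a gene had more than 1. Of the 1030 genes bright in any cell, 200 had at least 2 probe sets, and in 91 of these (45.5%) every probe set was bright in the same cells. Among bright or background genes with at least 2 probe sets, 39 of 91 (42.9%) showed the pattern in every probe set, among them Pcna, Rpl7, Rpl10a, Tmsb10, Uqcrb and Snrpg. The 3 probe sets of Rpl41 held equal values on all 5 arrays, so such agreement is not always independent. Acta2, Myl9, Rgs5, Junb and Mgp each rested on 1 probe set.

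Marks of other renal cell types were examined as lists. None of the measured members of the lists for macula densa (8), thick ascending limb (11), collecting duct principal cells (12), intercalated cells (11), podocytes (8), erythroid cells (3), interstitial fibroblasts (13) and macrophages with other leukocytes (17) was bright in any cell. With 94.5% of all genes bright in no cell, these counts of bright members are near those of all genes and set no list apart. The shares above background differed more. They ran from 23.1% to 38.5% for interstitial fibroblast genes, 12.5% to 25% for podocyte genes and 8.33% to 41.7% for collecting duct genes. Thick ascending limb and intercalated cell genes each ran from 0% to 18.2% and macula densa genes from 0% to 12.5%. Leukocyte genes ran from 0% to 5.88% and erythroid genes stayed at 0%, beside 7.27% to 15.2% of all genes. Genes at background in all 5 cells included Umod and Slc12a1 of the thick ascending limb, Ptprc of leukocytes, Cdh5 and Emcn of endothelium and Pdgfra of fibroblasts. Aqp2, the water channel of the collecting duct, was intermediate in all 5, from 8.67 to 8.97, and Nphs1, of the podocyte slit diaphragm, was intermediate in cells 4, 5 and 6 by 1 probe set and in cell 6 alone by the other. The 6 measured genes of the list of Y-linked genes and Xist were at background in all cells, so the labelled sex could not be checked.

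Some genes of tubule and 1 gene of the endothelial list were bright, mainly in cell 5. Of 26 proximal tubule genes, 1 was above background in cell 4, 3 in cell 5, 1 in cell 6, 1 in cell 7 and 6 in cell 8, and only cell 5 had bright ones. The shares, from 3.85% to 23.1%, were below that of all genes in cells 4, 6 and 7 and above it in cells 5 and 8. Miox, the inositol oxygenase of proximal tubule, read 6.28, 12.63, 7.40, 6.84 and 6.77 in cells 4 to 8. Gpx3, the plasma glutathione peroxidase made by the same segment, read 6.57, 12.37, 6.79, 6.76 and 7.46. Lrp2, Fbp1 and Slc34a1, which define the segment, were at background in cell 5, at 6.87, 6.39 and 6.85. S100g, the calcium-binding protein of distal tubule, was bright in cells 5 and 8, at 13.05 and 13.07, and read from 6.20 to 6.60 in the other 3, while Slc12a3 and Calb1 of the same segment were at background in all. Cldn5, a tight-junction protein of endothelium, was bright in cell 5 alone, at 10.77. It was the only 1 of 17 endothelial genes above background there, 5.88% beside 7.27% of all genes. Fxyd2, a regulator of the sodium pump, was also bright in cell 5 alone, at 12.30. Cell 5 was the cell with the fewest bright genes and with 0 of 20 contractile genes above background. Whether RNA of tubule cells contributed to it was not tested.

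Over all 18746 genes the arrays of the 5 cells correlated with Pearson's r from 0.688 for cells 4 and 7 to 0.764 for cells 6 and 8, and with Spearman's rho from 0.801 to 0.846. These are correlations across genes, which are not independent replicates, and they share probe behaviour on the array. Over the genes above background in at least 1 cell, r fell to between 0.220 and 0.433. Of the bright genes, cells 6 and 7 shared the most, 207, which was 61.2% of those of cell 6 and 34.6% of those of cell 7, and cells 4 and 5 shared the fewest, 93, which was 33.6% and 41.9%. Of the 401 bright genes of cell 8, 100 were at background in cell 7, and of the 598 of cell 7, 277 were at background in cell 8. The pair bright for Acta2 thus still differed at many genes.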

How the data were processed

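Log2 probe-set signals of the array value table were used as the authors deposited them. Per the submitters' processing notes they were made with Affymetrix Expression Console. For its version, algorithm and normalization, the entry is: not given in the sources used here. Of 35557 probe sets, 21789 carried 1 gene symbol, 1621 several and 12147 none in the platform annotation used. Where several probe sets shared a symbol, the brightest on average over the 5 cells stood for the gene, and receptor genes were left out of the tally. Each array's own receptor percentile served as its background. No normalization, filter or test was added to the main results. The values flagged for a closer look were picked with Dixon's gap limit for 5 values, 0.71 of the range. Scripts ran in Python 3.11.15 with numpy 2.4.6 and pandas 2.3.3 and were tested on simulated data.

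Members and gene lists were chosen with earlier results of these data known, and 9 gene families were added after the values had been seen. Genes named were the 25 bright in all 5 cells that lay farthest above background, the 5 farthest above background in each single cell, the 6 with the widest gap for each number of bright cells, the 10 with the smallest and the 10 with the largest SD, the 4 markers, members of the lists bright in any cell, and genes beside a threshold. Predicted genes and small RNAs were passed over. Genes named because they were at background, and the tubule, endothelial and stromal genes beside them, came from the same lists. Promoters were taken from RefSeq (GRCm38.p6). Alternatives tried were other background percentiles, other margins, quantile normalization, the mean over probe sets, single probe sets only, and cells left out.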

Additional observations from a re-analysis of the deposited data

Results flagged for a closer look

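In 10 of 98 values examined, 1 cell stood apart from the other 4, by a gap that filled most of the range of the 5. For independent, normally distributed values, chance flags about 1 in 20 groups of this size. The 98 values include lists that share members and genes chosen as bright in all 5 cells, so that rate is only a rough guide. Neither the number nor any single value was tested further. The cell that stood apart was cell 4 in 4 values, cells 7 and 8 in 2 each, and cells 5 and 6 in 1 each.

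In cell 4, COX2 of the mitochondrial genome read 12.15 against 12.80 to 12.95 in the others, and Rplp1, a ribosomal stalk protein, read 12.86 against 13.48 to 13.62. Ppdpf read 10.53 in cell 4 against 12.07 to 12.47, and the median of the interstitial fibroblast genes was 6.32 there against 6.60 to 6.72. In cell 6, Igfbp7 read 10.53 against 12.81 to 12.88, the widest gap relative to the range among these values. Atp6v0a2 of the proton pump was high in cell 5, at 11.61 against 9.89 to 10.24, while its other probe set was at background in all cells. Cox6c of cytochrome oxidase was low in cell 8, at 11.70 against 12.69 to 13.02, and the median of the endothelial genes was 7.18 there against 6.75 to 6.87. In cell 7, Rpl29 read 10.998 against 11.63 to 11.88, and the median of mitochondrial ribosomal proteins was 7.04 against 6.79 to 6.85. By these probe sets, all the single genes stayed bright in all 5 cells. The flagged list medians lay below background in every cell.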

How the results depend on the processing

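The number of genes bright in all 5 cells, 55, moved with the limit. It was 142 with a margin of 1 log2 unit, 33 with 3, 112 with the 95th percentile of receptors and 31 with the highest receptor. It was 28 among genes with a single probe set, 132 with cells 4 and 5 left out (chosen after seeing the data), and 61 to 78 with each cell left out in turn. The 510 bright or background genes became 313 with the 95th percentile and 39 over genes whose several probe sets all showed the pattern, and ranged from 383 to 505 with each cell left out. The percent of genes above background in cells 4 to 8 was 26.7, 30.7, 31.6, 36.1 and 39.7 with the 95th percentile and 2.50, 1.68, 2.95, 4.89 and 2.50 with the highest receptor. List members above background, summed over lists and cells, rose from 1103 to 1825 with the 95th percentile. The lowest and highest r were 0.220 and 0.433 over genes above background in any cell, and rho 0.801 and 0.846 over all genes. The causes were not tested. Of 88 named genes, 80 kept their set of bright cells with quantile normalization and 71 with the highest receptor. No paired analysis was possible because no groups were compared and the 5 cells carry no pairing. With 1 array per cell, a transcript absent from the cell and one lost in amplification cannot be told apart.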

Other observations

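Proteasome subunits, a family put together after the values had been seen, were bright in different numbers in the 5 cells. Of 39 genes, 5 were bright in cell 4, 3 in cell 5, 2 in cell 6, 11 in cell 7 and 3 in cell 8, and 0 were bright in all 5, beside 1.48%, 1.18%, 1.8%, 3.19% and 2.14% of all genes bright in cells 4 to 8. Psma4 was bright in cell 4 alone, at 12.78, Psma3 in cell 6 alone, at 12.25, and Psma7 in cells 5 and 7, at 13.49 and 11.16. These genes code for subunits of the same ring. Psmb6, a catalytic subunit, was bright in cells 5, 7 and 8, from 11.45 to 12.58. Mitochondrial ribosomal proteins gave a like picture, with 5, 3, 5, 14 and 5 of 77 bright in cells 4 to 8, beside the same shares of all genes. Of the 77, 0 were bright in all 5 cells. Only 0.293% of all genes were bright in all 5, so a count of 0 sets neither family apart.

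Of 24 secreted and matrix genes, 6 were bright in at least 1 cell, beside 5.49% of all genes. Besides Mgp and Igfbp7, these were each bright in a single cell. Timp3, an inhibitor of matrix proteases, was bright in cell 4 alone, at 12.55, and Timp2, its relative, in cell 6 alone, at 12.52. Sparc and Sparcl1, matricellular proteins, were both bright in cell 7 alone, at 11.70 and 12.51. Among S100 calcium-binding proteins, S100a4 and S100a6 were bright in cell 6 alone, at 12.64 and 12.04, and S100a11 and S100a16 in cell 7 alone, at 13.14 and 12.79. Cell 6 was also the only cell bright for Pcna, the sliding clamp of DNA replication, at 11.64, and for Cks1b, which binds cyclin-dependent kinases, at 12.40. Of 26 cell cycle genes it had 3 above background, against 5 in cell 8 and 0 or 1 in the other 3 cells. These are 11.5% in cell 6 and 19.2% in cell 8, near the 10.7% and 15.2% of all genes.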
